A study of Mus musculus with 7 samples.

Results

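Short non-coding transcript clusters of the mouse testis were compared between *Ctcf*-cKO and wild-type mice. They are the array's probe groups that the deposited table puts in its class NonCoding and whose annotated transcript spans at most 200 bases, counted as stop minus start plus 1. The rule found 360 of them among the 7580 rows of the table. The class NonCoding holds 3192 rows in all, of which 11 carry no position and could not be measured. The members spanned from 25 to 193 bases with a median of 87 bases. The members closest to the limit were a pair of 193 bases, of which the record of piR-10753 had a log2 signal of 10.91 in wild-type against 9.08 in *Ctcf*-cKO. The first cluster outside the limit spanned 216 bases, with 5.79 and 6.94.

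*Ctcf* encodes a zinc finger protein that binds DNA, insulates enhancers from promoters and anchors chromatin loops. RNA came from the seminiferous tubules of adult mice, 3 of them wild-type and 4 *Ctcf*-cKO (the sample titles speak of testes), and each RNA was hybridized to a mouse transcriptome array of its own. The *Ctcf*-cKO mice carried the *Stra8-iCre* transgene together with 1 floxed and 1 deleted *Ctcf* allele, and their littermates without the Cre transgene, with floxed or unaltered *Ctcf* alleles, served as wild-type. *Stra8-iCre* acts in germ cells as they approach meiosis (spermatogonia and the pre-leptotene stage). Sertoli and Leydig cells therefore keep the floxed allele intact but carry the deleted one, unlike their wild-type counterparts. All values below are the mean log2 signals per genotype as deposited. The table holds 0 columns of single arrays, so the spread between mice and the overlap of the groups could not be computed from it, and no test was run here. It also lists only transcripts that had already passed a fold and a p threshold, so a transcript without a row has no value here. *Ctcf* has 0 rows in it. Clusters differ in probes, hence a log2 signal compares the genotypes for 1 cluster and does not rank the abundance of different clusters.

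Small RNAs of the testis belong to several families. piRNAs are bound by PIWI proteins in germ cells, silence transposons and, at the pachytene stage of meiosis, arise from long precursors transcribed from a limited number of genomic loci. Transcription of many of these loci is driven by the transcription factor A-MYB, the product of *Mybl1*, and often starts in both directions from a shared promoter. MicroRNAs are cut from hairpins by Drosha and Dicer and repress mRNAs that match their seed, whereas small nucleolar RNAs sit in introns of host genes and guide the chemical modification of ribosomal RNA. The array was hybridized with cDNA of total RNA, so a probe within a short record can detect a longer precursor that contains the sequence. The RNA was purified on RNeasy columns, which as a rule retain very short RNAs poorly, and whether the signals came from mature small RNAs or from longer transcripts was not tested.

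The annotated microRNAs among the clusters fell into 2 sets by position, and the sequences below show examples from each. Of the 32 clusters named as microRNAs, 28 matched a RefSeq hairpin of the same name at the same place on GRCm38.p6, and 24 of these had the same start and end. Capitals mark the seed, bases 2 to 8 from the 5′ end. The first 4 mature sequences lie in positional groups that also hold piRNA-type records, and their clusters had a lower signal in *Ctcf*-cKO. The other 6 lie elsewhere, and their clusters had a higher signal in *Ctcf*-cKO.
miR-7241-5p (chr9:67727758-67727780, minus strand): aCUUGCAUgaguuaauacccacc
miR-7223-5p (chr11:107996848-107996867, plus strand): uAGCUUUGcugaggugucgg
miR-7230-3p (chr5:113337590-113337612, minus strand): uUGAGUUGagacugucaguaggu
miR-7214-3p (chr17:27317035-27317058, minus strand): cUCAGUCCugaccccuugagcgca
let-7c-5p (chr16:77599672-77599693, plus strand): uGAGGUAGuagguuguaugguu
let-7e-5p (chr17:17830366-17830387, plus strand): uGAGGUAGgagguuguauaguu
miR-465a-5p (chrX:66839099-66839121, minus strand): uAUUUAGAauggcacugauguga
miR-465d-5p (chrX:66822691-66822713, minus strand): uAUUUAGAaugguacugauguga
miR-99a-5p (chr16:77598940-77598961, plus strand): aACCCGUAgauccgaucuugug
miR-10b-5p (chr2:74726074-74726096, plus strand): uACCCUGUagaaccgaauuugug
let-7c-5p and let-7e-5p share the seed GAGGUAG, and miR-465a-5p and miR-465d-5p share AUUUAGA. No other seed was shared among the 48 mature sequences compared.

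The signal of most short clusters was lower in *Ctcf*-cKO. Of the 360, 304 (84.4%) were lower and 56 (15.6%) were higher, where 64.9% of all rows of the table were lower and 35.1% were higher. Among the 2821 longer non-coding rows with a position, 69.1% were lower, and among the 4102 coding rows 62.1%. The median log2 signal of the short clusters was 9.11 in wild-type against 7.67 in *Ctcf*-cKO. That of the longer non-coding rows was 7.07 and 6.43. The levels of these 2 sets rest on different probes, so only the genotypes are compared within each. The lower clusters differed by a median log2 value of -1.63, and the lower rows of the whole table by -1.31. The median of the higher clusters, 1.30, was also that of all higher rows. A difference of at least 3-fold was met by 169 lower clusters (46.9% of the 360), against 12.5% of all rows. It was met by 14 higher clusters, against 8.40% of all rows. These shares are over transcripts that had passed the table's thresholds. In RNA of whole tubules, fewer cells of a type and less RNA per cell cannot be told apart.

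**Figure D1:**
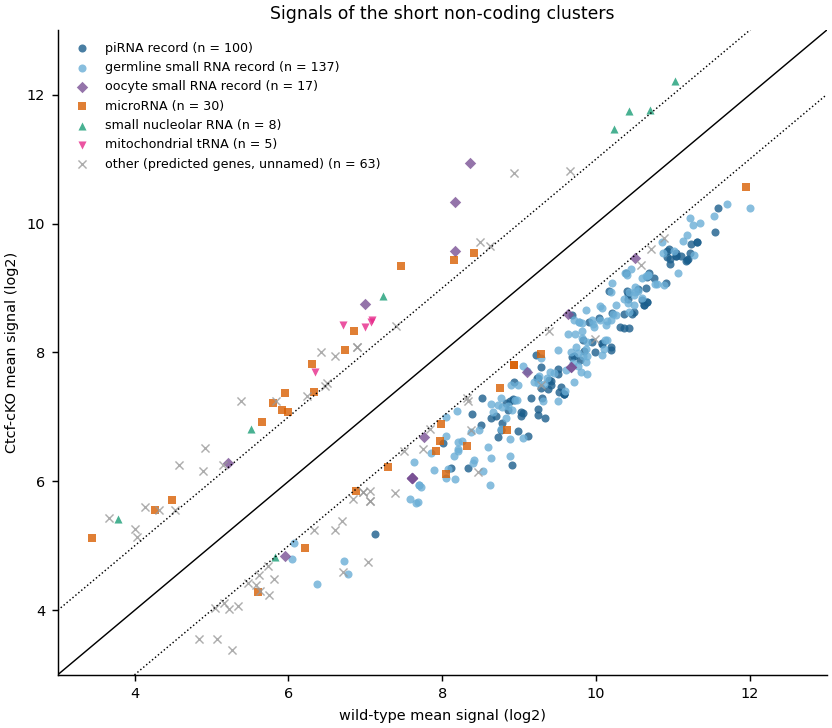
Mean log2 signal in wild-type (x axis) against *Ctcf*-cKO (y axis) for each of the 360 short non-coding clusters, with symbols by kind of record. The solid line marks equal signals and the dotted lines a log2 difference of 1; records of piRNA and germline small RNA lie below the lower dotted line, and the mitochondrial tRNAs lie above the upper one.

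Sequence records of piRNA type made up most of the short clusters. A symbol or description was lacking for 261 clusters, but the transcript record behind nearly all of them named a kind of small RNA. Over all 360 clusters, 137 rested on records of germline small RNAs and 100 on records of piRNAs, and all clusters of both kinds were lower. The germline small RNA records had a median log2 signal of 9.71 in wild-type against 7.92 in *Ctcf*-cKO, with differences from -2.68 to -1.03. The piRNA records had medians of 9.84 and 8.04, with differences from -2.65 to -1.11. A further 17 rested on small RNAs cloned as clusters from oocytes, of which 12 were lower and 5 higher. With repeated records counted once, 7 of these were lower and 5 higher. Together these 254 records, called piRNA-type here, were 70.6% of the short clusters. The oocyte records are included in this term although their labels do not name piRNAs. Of them 249 were lower and 5 higher, where 64.9% and 35.1% of all rows of the table were. A further count, 159 (62.6%), were at least 3-fold lower, against 12.5% of all rows. The 106 other clusters were split into 55 lower (51.9%) and 51 higher.

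The most strongly reduced clusters were of this kind. gsRNA19 on chromosome 2 had a log2 signal of 8.62 in wild-type against 5.94 in *Ctcf*-cKO, a 6.41-fold difference. piR-12241 on chromosome 4, in the annotated gene *Gm12648*, had 8.91 and 6.26. gsRNA228 and gsRNA223, both on chromosome 12, had 8.88 and 6.39, and 9.05 and 6.67. piR-11296 on chromosome 10 had 9.12 and 6.70. gsRNA111 on chromosome 6, with one of the 5 highest readings, had 12.01 in wild-type against 10.24 in *Ctcf*-cKO. Across the 254 records, the size of the difference followed neither the level nor the number of probes closely. Spearman's rho of the log2 difference was 0.15 with the wild-type signal, -0.23 with the number of probes and -0.20 with the length, over points that share arrays and often a locus.

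**Figure D2:**
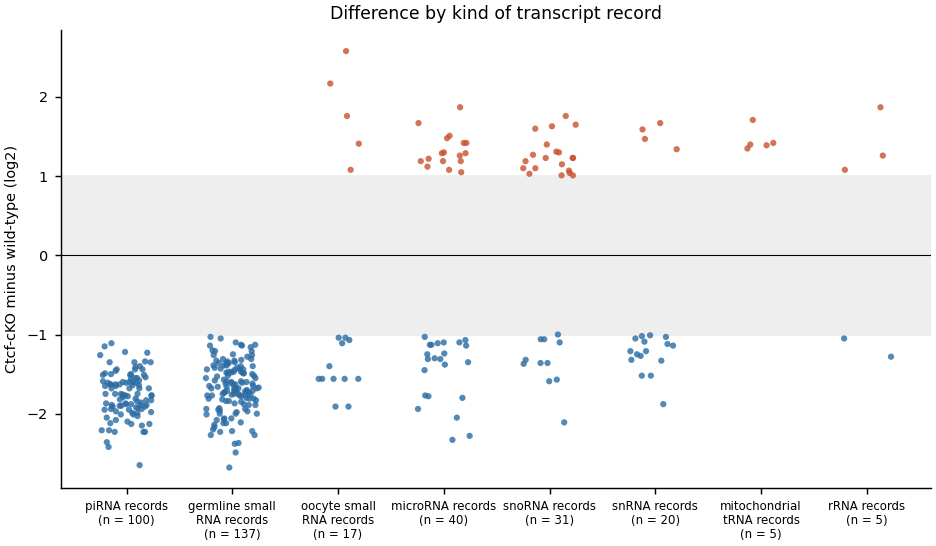
Log2 difference, *Ctcf*-cKO minus wild-type, of each short cluster by the kind of its transcript record, blue where lower and red where higher. The grey band spans differences of -1 to 1, which the table leaves out; the piRNA records lie between -2.65 and -1.11 and the germline small RNA records between -2.68 and -1.03, while microRNA and snoRNA records lie on both sides.

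The lower clusters were gathered at few places in the genome, given here as the table lists them, on mm10. When neighbours less than 100 kb apart were joined, 271 of the 360 clusters (75.3%) fell into 40 groups of 2 or more, and 89 stood alone. The share of all rows of the table with a neighbour as near was not counted. The grouping also depends on where the array has probes for short records. No group held both directions, as 35 groups were lower throughout and 5 were higher throughout. In the groups, 257 of 271 clusters (94.8%) were lower, and among the clusters that stood alone 47 of 89 (52.8%) were, above and below the 64.9% of all rows of the table. A record of piRNA type was present in 35 groups, of which 34 were lower. Those at chr6:128186119-128245586, chr7:75773852-75776742, chr9:44145691-44146813 and chr10:118245071-118254397 held oocyte records only. In those with 5 or more clusters, 16 in number, there were 206 clusters and 191 piRNA-type records, 75.2% of all such records. Some records recur between groups, so the groups are not all separate measurements. gsRNA53 (7.70 and 5.95) and gsRNA58 (9.78 and 8.47) had equal values at chr5:113324493-113346929 and chr5:114818787-114852865. gsRNA201 was present in 5 places on chromosomes 1, 10 and 17. The short records covered only between 0.87% and 7.40% of the span of these 16 groups, with median spacings from 725 to 3701 bases.

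The median log2 differences of the 16 groups ran from -2.11 to -1.37. Within the groups the differences had a pooled SD of 0.28. That SD describes clusters of the same arrays and is not a spread between mice. The 108 clusters of the minus strand and the 98 of the plus strand had medians of -1.64 and -1.75.

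The largest group lay at chr17:27301678-27357139 and held 32 clusters over 55.5 kb, among them *Mir7214* and *Mir7216*. Its median log2 signal in wild-type was 9.13, and its differences had a median of -1.47. gsRNA301 had the largest difference there, from 8.40 in wild-type to 6.28 in *Ctcf*-cKO, and gsRNA285 the smallest, from 6.07 to 5.04. Of the 32, 13 were at least 3-fold lower. Longer non-coding rows inside the same span were lower as well, with log2 signals of 9.39 and 8.10, 10.20 and 9.01, and 9.42 and 7.84.

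The second group, chr2:151073655-151435929, held 28 clusters over 362.3 kb and consisted of repeated copies. Its wild-type median was 10.63 and its median difference -1.66. The record of piR-17 was present in 4 places, with differences of -1.93, -1.60, -1.75 and -1.60. The 3 copies of piR-20741 carried the same values, 9.58 in wild-type against 7.35 in *Ctcf*-cKO. In the whole group 11 clusters shared both signals with another, so the 28 clusters stood for 22 distinct measurements, and the array cannot tell which copy was transcribed. The predicted small nucleolar RNA genes *Gm24077*, *Gm24868*, *Gm24199* and *Gm22517* lay in the same span and were lower by log2 values of 1.06 to 1.36, the first pair with equal values. Of the longer non-coding rows in this span 10 of 10 were lower, where 69.1% of all longer non-coding rows were. Among them were *4930442J19Rik* with 10.64 in wild-type against 9.12 in *Ctcf*-cKO and *Gm14144* with 11.00 and 9.44.

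Another group, chr2:92541375-92594676, had 22 clusters on the plus strand only, with *Mir7221* and *Mir7222* at its far end. Its differences were the most spread among the groups with over 10 clusters, from -2.68 for gsRNA19 to -1.10 for gsRNA25. The record mtes-14, described as a microRNA, lay near its start with 8.47 in wild-type against 6.14 in *Ctcf*-cKO. The group at chr9:67699513-67738544 had 17 clusters with a median difference of -1.81, and contained *Mir7241* and *Mir7242*. The annotated position of *Mir7242* coincided with the record of piR-10089, which went from 9.23 to 7.60.

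Among the 16 groups with 5 or more clusters, those on chromosomes 12 and 7 were reduced most. At chr12:98394266-98439354 all 12 clusters were at least 3-fold lower, with a median of -2.06. At chr7:69889153-69932628 all 9 were, with a median of -2.11. The group at chr5:113324493-113346929, which contains *Mir7229* and *Mir7230*, had the smallest median difference, -1.37, with 2 of 12 clusters at least 3-fold lower. The group at chr6:127789687-127830471 had 12 clusters and a median of -1.77, and the group at chr15:74637203-74646883 had 10 clusters within 9.7 kb and a median of -1.78.

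**Figure D3:**
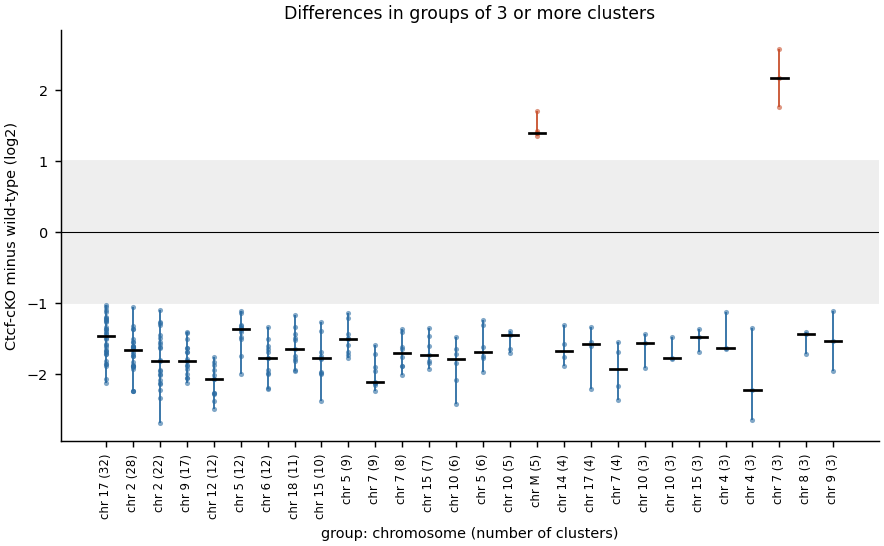
Log2 differences, *Ctcf*-cKO minus wild-type, in each positional group of 3 or more short clusters, with 1 point per cluster and a black bar at the group's median; the label gives the chromosome and the number of clusters. All groups lie below -1 except the mitochondrial group and the group of oocyte records on chromosome 7, which lie above 1.

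In most groups with clusters on both strands, the strands pointed away from each other. Of 35 groups with a piRNA-type record, 11 had clusters on both strands, and in 9 of them every minus-strand cluster lay before the first plus-strand cluster. The exceptions were the repeated locus of chromosome 2 and a pair of copies on chromosome 10. On chromosome 17, 14 minus-strand clusters were separated from 18 plus-strand clusters by 4674 bases. The minus arm had a median difference of -1.35 and the plus arm of -1.64. On chromosome 12 the gap was 3142 bases, with medians of -2.27 and -1.83. On chromosome 9, 16 clusters lay on the minus arm and 1, piR-13179, on the plus arm, at -2.05. Both arms were lower in each of the 9 groups, but on chromosomes 6 and 10 an arm was 1 cluster as well. At chr10:86571808-86619420 that cluster, gsRNA200, had a copy on the minus arm. At chr17:66153309-66209186 the record gsRNA201 lay on both arms. Whether the probes of such copies read 1 strand or both was not tested.

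**Figure D4:**
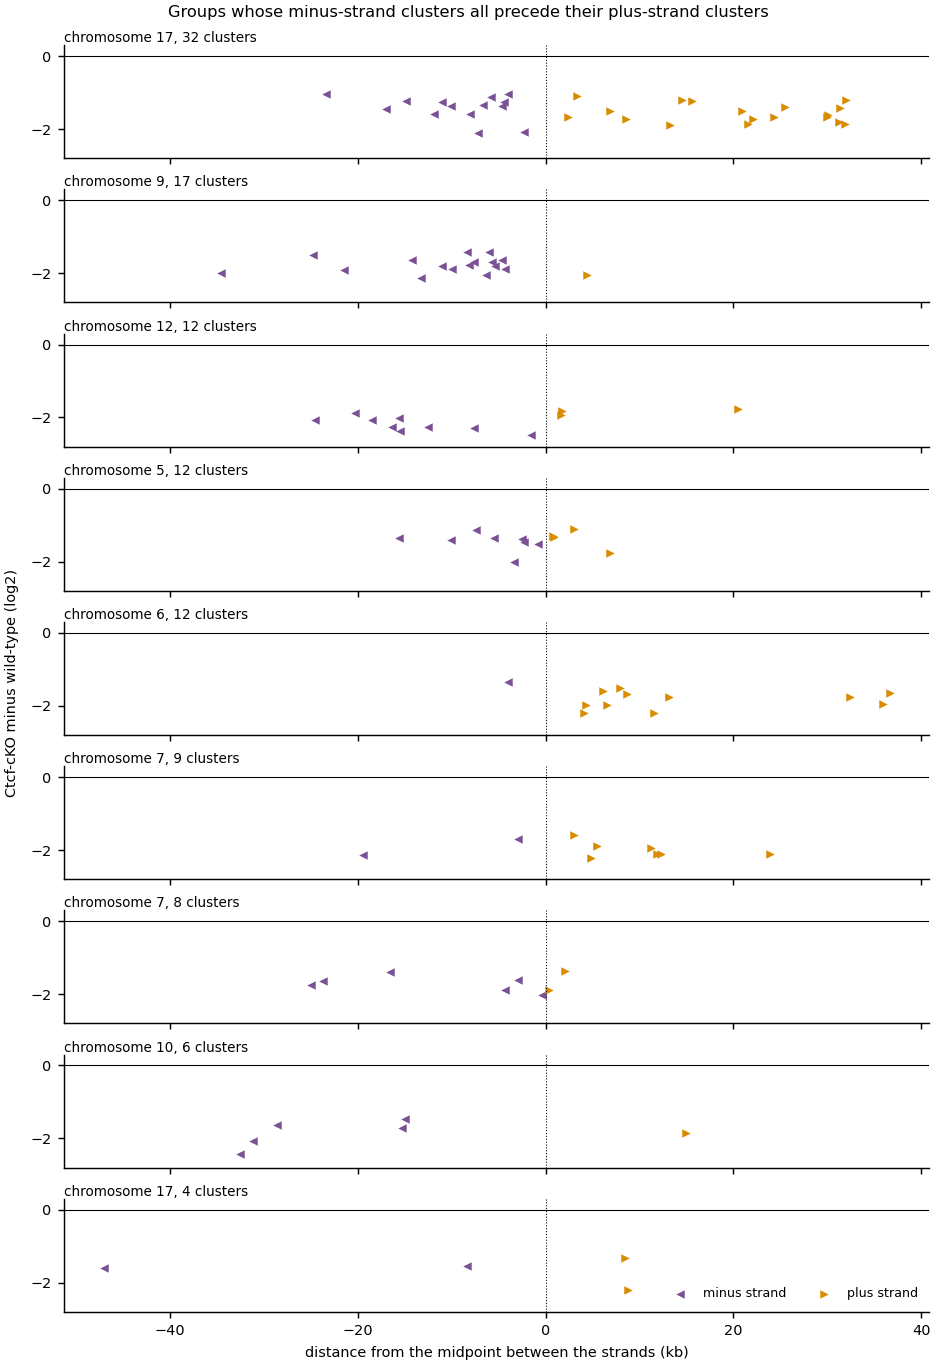
The 9 groups in which every minus-strand cluster precedes the plus-strand clusters. The x axis is the distance of each cluster's centre from the midpoint between the strands, in kb, and the y axis is the log2 difference, *Ctcf*-cKO minus wild-type; leftward purple triangles are on the minus strand and rightward orange triangles on the plus strand, and all lie below -1.

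At chr7:73791281-73818337 an annotated start site fell between the arms. There, 6 minus-strand clusters lay within *Gm10619* and ended 726 bases before the first of 2 plus-strand clusters. gsRNA149, the last on the minus strand, had 9.87 in wild-type against 7.86 in *Ctcf*-cKO, and gsRNA147, the first on the plus strand, had 9.83 and 7.94. The row of *Gm10619* itself had 9.80 and 8.16. The promoter window of *Gm10619* is printed because it spans the turn between the strands, and that of *4930442J19Rik* because copies of it recur in the chromosome 2 locus. Both are RefSeq windows on GRCm38.p6, from 250 bases before to 50 after the annotated start, and capitals mark the letters CAACTG, a form of the MYB recognition site, or their reverse complement CAGTTG.
Gm10619 (chr7:73816454-73816753, minus strand): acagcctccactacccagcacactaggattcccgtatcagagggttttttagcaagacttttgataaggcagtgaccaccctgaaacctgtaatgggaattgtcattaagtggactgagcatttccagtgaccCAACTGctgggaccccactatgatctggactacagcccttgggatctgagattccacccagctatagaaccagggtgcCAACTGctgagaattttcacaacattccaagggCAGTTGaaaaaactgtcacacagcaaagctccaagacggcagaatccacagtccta
4930442J19Rik (chr2:151301789-151302088, plus strand): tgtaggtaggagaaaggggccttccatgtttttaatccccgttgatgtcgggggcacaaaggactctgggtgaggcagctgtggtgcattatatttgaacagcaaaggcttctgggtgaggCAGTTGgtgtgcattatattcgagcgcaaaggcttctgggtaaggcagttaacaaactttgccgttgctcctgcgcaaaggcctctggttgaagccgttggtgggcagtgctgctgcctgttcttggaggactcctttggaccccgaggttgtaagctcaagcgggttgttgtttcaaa
The *Gm10619* window held 3 matches and overlapped gsRNA147 on the other strand. The other windows between the arms of a group, 1 of *Gm10505* in the largest group and 2 of *Gm20742* on chromosome 17, held 0 matches. Searched on both strands, CAACTG was present in 13.65% of 32851 promoter windows, and 3 or more matches in 0.113%. Within 5 kb of the lower groups with 3 or more clusters there were 25 windows of 22 genes, of which 13 held CAACTG, at 16 distinct positions. *4930519G04Rik*, whose window on chromosome 5 also held 3, starts just beyond a group of 6 minus-strand clusters. The 13 are not independent, since 4 belong to copies of the chromosome 2 repeat, and on chromosome 5 the windows of *2610524H06Rik* and *Gm46920* overlap and share 1 match, while that of *1500011B03Rik* holds a similar stretch. Over the stretch that their windows share, the *4930442J19Rik* and *Gm14144* copies were the same in 261 of 261 bases and the *Gm30478* and *LOC100125594* copies in 248 of 249. The least alike pair, *Gm30478* and *4930442J19Rik*, was the same in 254 of 277. Part of the CTCF motif, searched in the same way, matched 2.43% of all windows and 2 of the 25. The letters of both motifs were chosen after the windows had been scanned, and a match is not a bound site.

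MicroRNAs differed by where they lay. Of the 32 microRNA clusters, 17 were lower and 15 higher, where 64.9% and 35.1% of all rows were. The 11 that lay in groups with piRNA-type records were all lower, and of the 21 elsewhere 6 were lower and 15 higher. The former are little-studied annotations of the *Mir72xx* series. *Mir7241* went from 8.84 in wild-type to 6.79 in *Ctcf*-cKO, the largest difference among them, and *Mir7223* from 8.05 to 6.11. *Mir7215* had 8.32 and 6.55, and *Mir7230* had 11.95 and 10.57. *Mir7210* had 9.28 and 7.97. *Mir7216*, the least changed, had 7.99 and 6.89. The mature sequences annotated in these 11 hairpins were 17 to 27 bases long, and 12 of 20 began with U, while those of the other hairpins were 20 to 23 bases long and 9 of 28 began with U.

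Among the higher microRNAs were well-known families. *Mir99a* and *Mirlet7c-1*, which are neighbours on chromosome 16, had 5.95 in wild-type against 7.37 in *Ctcf*-cKO, and 4.27 and 5.56. *Mirlet7e*, of the let-7 family, which restrains growth-promoting mRNAs, had 5.66 and 6.92. *Mir10b*, which lies in the *Hoxd* cluster, had 3.45 and 5.12. *Mir145a*, known as a smooth muscle microRNA, had 6.31 and 7.82, and the row of its host transcript *Mir143hg* had 6.75 and 7.76. *Mir107*, in an intron of *Pank1*, had 5.80 and 7.22, and *Pank1*, an enzyme of coenzyme A synthesis, 8.23 and 10.19. The germ cell microRNAs *Mir465* and *Mir465d* of the X chromosome had 4.49 and 5.71, and 5.91 and 7.10. *Mir692-1* had the largest difference, from 7.47 to 9.34.

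The rest of the higher microRNAs had log2 differences between 1.05 and 1.48: *Mir694*, *Mir6994*, *Mir5125*, *Mir6993*, *Mir6541* and *Mir1962*. Outside the piRNA-type groups, the lower ones were *mmu-mir-7683*, *Mir6905*, *Mir3088*, *Mir872* and the copies *Mir683-1* and *Mir683-2*, which shared the values 8.94 and 7.81. A microRNA or small nucleolar RNA cluster lay under a longer row of the same strand in 10 cases, and in all 10 the pair had the same direction. *Mir872* had 6.88 and 5.85 and its host *Ift74*, a component of cilia, 10.17 and 9.10. *Mir3088* had 7.30 and 6.23 and its host *Ak8* 10.81 and 9.66. Over all short clusters, 56 lay under a longer row of the table's coding or non-coding classes on the same strand, 29 under a coding and 27 under a non-coding one, and all 56 pairs shared a direction. *Snora69* is not among the 56, because the table puts its host in a ribosomal class. Whether the probes of the short cluster read the small RNA or the host's own transcript was not tested.

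**Figure D5:**
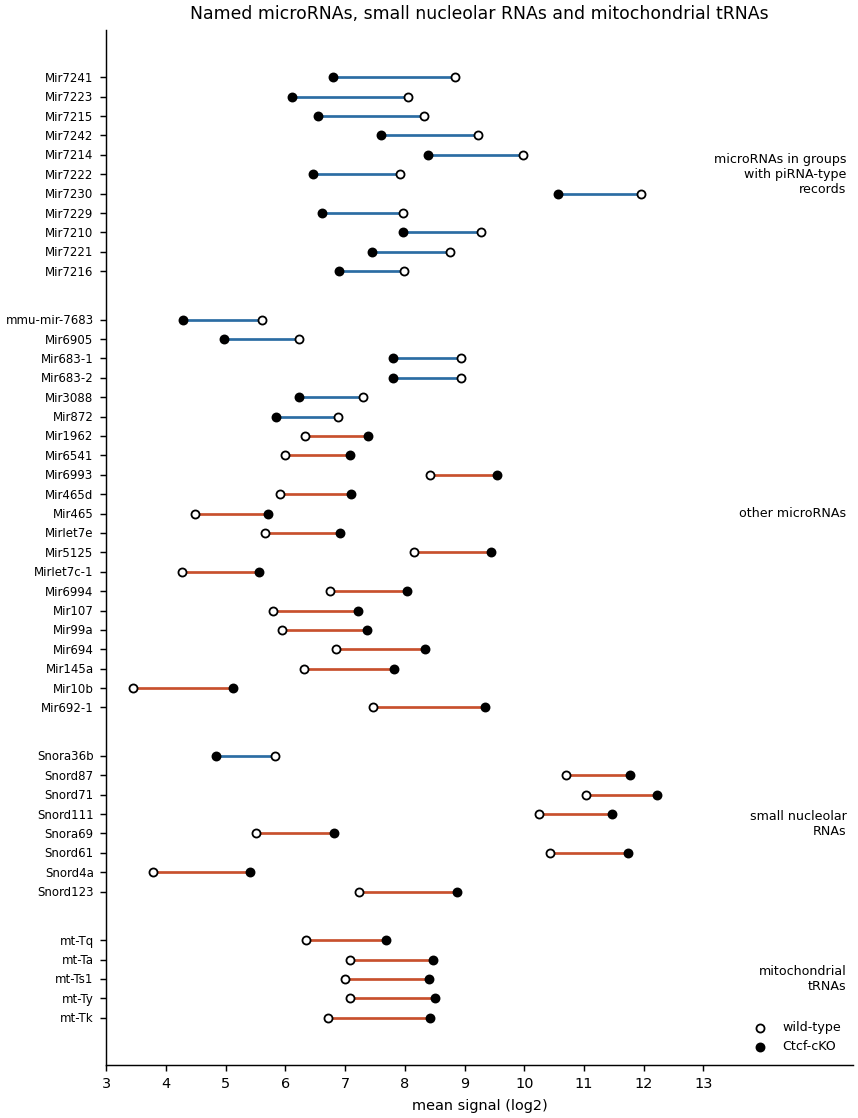
Mean log2 signal in wild-type (open circles) and *Ctcf*-cKO (filled circles) of the named microRNAs, small nucleolar RNAs and mitochondrial tRNAs, with a blue line where the signal was lower in *Ctcf*-cKO and a red line where it was higher. All 11 microRNAs in groups with piRNA-type records are lower, and 15 of 21 other microRNAs, 7 of 8 small nucleolar RNAs and all 5 mitochondrial tRNAs are higher.

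Named small nucleolar RNAs were mostly higher in *Ctcf*-cKO. Of 8 such clusters 7 were higher, each within an annotated gene, where 35.1% of all rows were higher. *Snord71* had 11.03 in wild-type against 12.22 in *Ctcf*-cKO, *Snord87* 10.70 and 11.77, and *Snord111* 10.24 and 11.47. *Snord61* had 10.43 and 11.74, and *Rbmx*, the X-linked gene whose intron holds it, 7.21 and 8.23. *Snord123* had 7.23 and 8.88 and its host *Snhg18* 6.29 and 7.54. *Snora69* had 5.51 and 6.81 and its host *Rpl39*, a ribosomal protein gene, 7.69 and 8.79. *Snord4a* had 3.78 and 5.41. *Snora36b*, whose cluster also carries the symbol *Mir664*, was the lower one, with 5.83 and 4.83, a difference at the edge of the table's threshold. With the 23 predicted genes that Ensembl types as snoRNA included, 20 of 31 were higher and 11 lower.

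The predicted small RNA genes went both ways. Of the 52 predicted genes, 31 were lower and 21 higher, close to the 64.9% and 35.1% of all rows. Among the snoRNA types *Gm22186* went from 6.71 to 4.60, the largest difference of a cluster with a gene symbol, *Gm25588* from 8.38 to 6.79 and *Gm26458* from 7.39 to 5.82. *Gm24564* and *Gm23600*, both in the imprinted transcript *Rian*, went from 4.92 to 6.52 and from 4.89 to 6.16. Of 20 snRNA records, 16 were lower, such as *Gm25702*, from 5.27 to 3.39, *Gm26375*, from 5.75 to 4.23, and *Gm25362*, from 5.07 to 3.55. The higher ones were *Gm24996*, from 4.58 to 6.25, *Gm24400*, from 6.42 to 8.01, *Gm23864* and *Gm22935*. Both signals were under a log2 value of 6 in 10 of the 20 snRNA records and 18 of the 52 predicted genes. Over all 360 short clusters this held for 27. *Gm24815*, typed as a microRNA, had 9.29 and 7.49.

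The clusters of the mitochondrial genome and of the X chromosome were all higher, where 35.1% of all rows of the table were. The 5 mitochondrial tRNAs had differences between 1.35 and 1.71. *mt-Tk* had 6.71 in wild-type against 8.42 in *Ctcf*-cKO, *mt-Ty* 7.09 and 8.51, and *mt-Ts1* 7.0 and 8.40. All 8 rows of the mitochondrial genome in the table were higher. On the X chromosome there were 7 short clusters, namely *Snord61*, *Snora69*, *Mir465*, *Mir465d*, *Gm23613*, *Gm24598* and the 5S ribosomal RNA gene *n-R5s8*, which had 5.38 and 7.25. Of all 115 non-coding X rows 82 (71.3%) were higher, and of all 564 X rows 50.4%.

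Records of small RNAs cloned from oocytes included the most increased clusters. On chr7:75773852-75776742, 3 such records within the non-coding gene *AU020206* had 8.36 in wild-type against 10.94 in *Ctcf*-cKO, 8.17 and 10.34, and 6.99 and 8.75. *AU020206* had 7.66 and 9.19. Each of these records was read by only 2 or 3 probes, fewer than the 30 probes behind 257 of the 360 clusters. Of the 12 lower oocyte records, 5 were copies of 1 record on 4 chromosomes with the same values, 7.61 and 6.05. A further record was present on chromosomes 6 and 9 with equal values, 9.68 and 7.77. With repeated records counted once, 58.3% of the oocyte records were lower, where 64.9% of all rows were. Another of the lower ones carried the symbol *Cbl*, at 10.51 and 9.47, and lay beside another at 9.10 and 7.70. The other strongly increased cluster without a name was a cDNA clone record in *Tbc1d9* on chromosome 8, with 8.94 and 10.78.

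Genes of the piRNA pathway were lower where they had a row. Of 24 such genes 15 had a row, and all 15 were lower, with a median difference of -1.26, in a table where 62.1% of the coding rows were lower. The list was chosen after values had been seen. *Mybl1* had 9.61 in wild-type against 8.44 in *Ctcf*-cKO. *Piwil1*, a PIWI protein that binds pachytene piRNAs, had 10.80 and 9.49, and is also among the primary spermatocyte markers below. The Tudor proteins *Tdrd6* and *Tdrd5* had 10.99 and 9.39, and 9.63 and 8.28. *Gtsf1* had 9.30 and 7.92, *Rnf17* 9.61 and 8.11, and *Henmt1*, which methylates the ends of piRNAs, 8.76 and 7.47. Of 13 genes of microRNA processing, *Prkra* and *Tnrc6a* had a row, both higher, with 7.99 and 9.35, and 8.20 and 9.28. None of 12 snoRNP protein genes had a row, and of the 20 snoRNA host genes on the list *Snhg18* had one. The list does not hold *Rbmx* and *Rpl39*, hosts of clusters described above that also had rows. Of 35 germ cell microRNAs listed, *Mir465* and *Mir202* had a row, the latter outside the length limit, with 7.04 and 8.66. *Mir465d*, described above with 5.91 and 7.10, is not on that list.

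Markers of testis cell types moved in both directions. Leydig cells, macrophages and endothelial cells lie mainly between the seminiferous tubules, and how many of them stayed with the isolated tubules is not known here. Of 9 primary spermatocyte markers 7 were lower, of 10 round spermatid markers 10, and of 11 elongating spermatid markers 3, where 64.9% of all rows were lower. The remaining ones had no row. Their summed signals, as log2, compare the genotypes over the same probes and were 12.62 in wild-type against 11.33 in *Ctcf*-cKO, 14.11 and 12.85, and 13.13 and 12.11. The highest readings, which depend on the probes, were those of *Piwil1*, *Pgk2* and *Spem1*. Of the somatic markers with a row all were higher, where 35.1% of all rows were. They were 6 of 7 Leydig cell markers, summed from 12.75 to 14.66 with *Cyp17a1* highest, and 7 of 9 Sertoli cell markers, from 11.89 to 13.31 with *Clu* highest. Peritubular myoid cells followed with 3 of 5, from 10.24 to 11.55 with *Acta2* highest, macrophages with 3 of 7, from 9.0 to 10.31 with *Mrc1* highest, and endothelial cells with 2 of 6, from 7.70 to 8.83 with *Cdh5* highest. Of 8 spermatogonial markers *Kit* alone had a row, at 7.81 and 10.09. The part of these cell types in the small RNA differences was not tested.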

How the data were processed

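Total RNA of 7 mice, 3 wild-type and 4 *Ctcf*-cKO, was converted to labelled cDNA and hybridized to GeneChip MTA 1.0 arrays. The submitters' processing notes name RMA, Affymetrix Expression Console 1.4.1, Transcriptome Analysis Console 3.0 and the build mm10. The deposited table gives, per transcript cluster, the authors' bi-weight average of log2 signal in each genotype and the probe number. It also gives the authors' linear fold change, p and adjusted p, which were not used. Per its title it holds only rows past a linear fold and a p threshold. It has 0 columns of single arrays, so no error or pairing could be computed and no test was run here. Precision is set by the number of arrays.

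Differences were taken as *Ctcf*-cKO minus wild-type. Members were chosen by class, position and length, and their kind was read from symbol, description and transcript record. Neighbours were joined within 100 kb, and overlaps needed 1 base. Names were given to all microRNA and small nucleolar RNA members, to the 15 other named members with the largest differences, to the 5 largest in each direction, the 5 highest signals, and members of large groups. Other names were chosen after their values were seen, as was the piRNA pathway list. The members and lists were chosen with earlier results of these data known. RefSeq tables (GRCm38.p6) gave sequences and genes. Grouping, overlap and motif functions were tested on simulated positions. Python 3 with pandas and scipy was used. The alternatives varied length, fold, signal, probe number, copies, coding overlap, centring, distance, strand and naming.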

Additional observations from a re-analysis of the deposited data

How the results depend on the processing

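No paired analysis was possible because the table holds genotype averages without values per mouse. Leave-one-out values were not run either. Of 82 alternative values, 67 stayed within 1.5 times a count or within the 95% binomial interval of a share or median. A length limit of 100 bases left 163 lower and 37 higher clusters, 147 in groups and 149 unnamed, with a wild-type median of 8.885, because fewer clusters enter. A fold of 3 left 169 lower and 14 higher clusters (92.3% lower) with medians of -1.84 and 1.735. Re-centring on the median difference of all rows, -1.15, turned the sign of some clusters and gave 270 lower and 90 higher ones (75% lower), but the rows are those past a fold threshold, so their median is not that of the array. Counting small nucleolar RNAs by overlap with the RefSeq annotation gave 25 in place of 8. Without the records of piRNA type, an alternative chosen after seeing the data, 55 clusters were lower, a share of 51.9%. Requiring 10 probes, also chosen then, left out 53 clusters, of which 48 were lower. Clusters with few probes and repeated copies limit single values.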

Other observations

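The 3 piRNA-type records within the span of *Cyp19a1*, the aromatase gene that makes estrogens, were lower, with 10.36 in wild-type and 8.83 in *Ctcf*-cKO for gsRNA178, 9.69 and 8.58 for piR-10913, and 10.08 and 8.13 for piR-655. *Cyp19a1* itself has no row. Of the 5 microRNA records without a gene symbol all were lower, where 64.9% of all rows of the table were. The records mtes-14 and mtes-15 were lower 5.03-fold and 4.86-fold, and the other three by log2 differences of -1.78, -1.24 and -1.11. All 5 lay inside groups with piRNA-type records. Near the start of the chromosome 2 locus, before its first piRNA-type record, the Coding and Complex rows named *Gm14151* and *Gm14147* were lower, with log2 differences of -1.09 and -1.07. Further into the locus, the pseudogene *Gm14148* was higher, from 9.58 to 10.83.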
